A study of Mus musculus with 4 samples.

Results

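The transcripts described here encode 8 structural proteins of the mouse sperm head: the actin-like proteins Actl7a, Actl7b and Actl9, the actin-related proteins Actrt1 and Actrt2, the cylicins Cylc1 and Cylc2, and Capza3, the germ cell alpha subunit of the actin capping protein. They were taken by symbol from a table with 26068 entries that name a gene, and each symbol had 1 entry. Messenger RNA was sequenced from the entire testis of male mice of the B6D2F1 strain, aged 24 days, with 2 wild type libraries and 2 libraries homozygous for the Adad2 knockout. Adad2 is a gene of male germ cells whose product carries a domain that binds double-stranded RNA, and the series' title ties it to piRNA production and to spermiogenesis, in which round haploid cells become sperm. The sources used here do not give how the allele was made or whether the libraries of a group come from separate animals, so p-values measure only the spread between these libraries, which may be technical.

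During spermiogenesis the acrosome, a secretory vesicle with the enzymes for egg penetration, spreads over the nucleus. A filament plate called the acroplaxome ties it to the nuclear envelope, and the perinuclear theca, a rigid protein shell, later fills the space between the acrosome, the nucleus and the cell membrane. Testis-specific relatives of actin and the basic, lysine-rich cylicins are building blocks of this shell, and they are made in spermatids, the haploid cells that follow meiosis.

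All 8 genes fell in the knockout. The smallest change was 1.79-fold, in Cylc1, and the largest was 12.4-fold, in Actrt2. A gene was tested if it averaged 1 RPKM or more (reads scaled to gene length and to library depth, with 1 RPKM being 0 on the log2 scale), and all 8 were. The count is 8 of 8 at a Benjamini-Hochberg adjusted p under 0.05 in limma, beside 7.15% of the 13414 genes tested that were lower. These 8 genes were chosen with earlier results of these data known, so this count and the median below are descriptions, not tests. The wild type and knockout values of all 8 did not overlap, as was true, with the knockout lower, of 16.8% of genes tested. The median log2 change was -1.69, against 0.14 over all genes tested and -1.38 over the genes called lower. In RNA from a whole tissue, fewer cells of a type and less RNA per cell cannot be told apart. Without wild type replicate 1 limma called 0 of the 8 (adjusted p from 0.0535 to 0.173) and 0 genes in all, with 2357 genes at an unadjusted p under 0.05. Without wild type replicate 2 it called 5, with Actrt1 (0.0532), Capza3 (0.0513) and Cylc1 (0.151) missing the threshold. The changes stayed below 0 in both cases, as they must where the groups do not overlap.

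**Figure D1:**
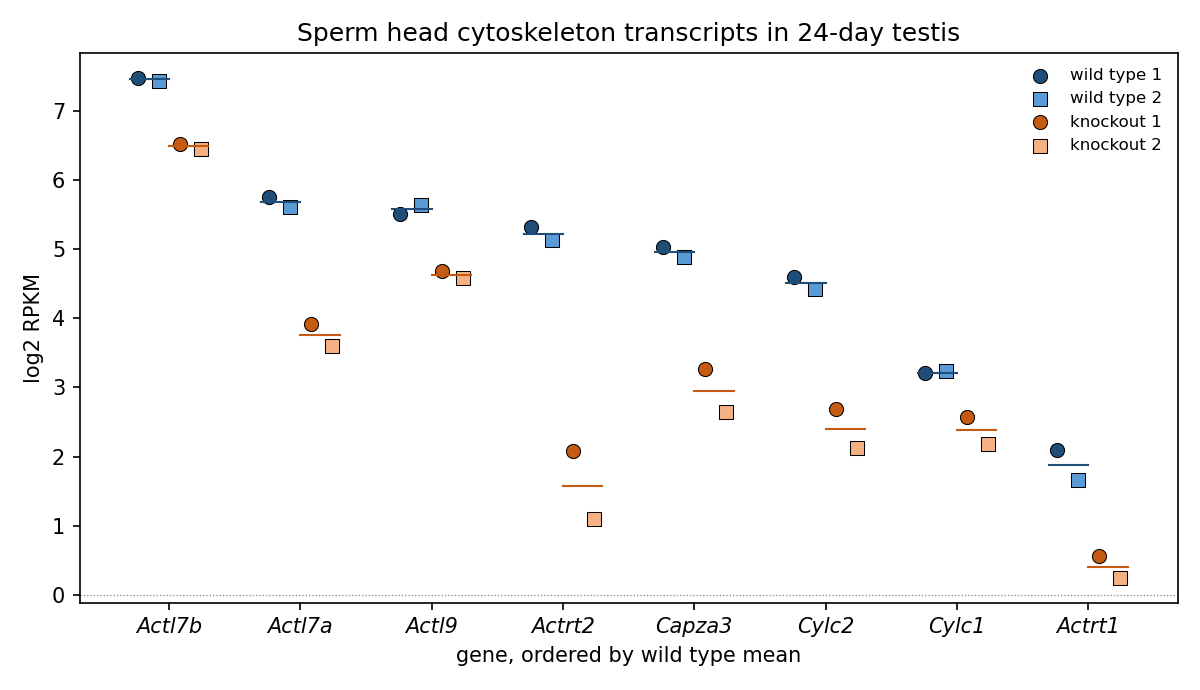
Level of each gene in log2 RPKM (vertical axis) in the 4 libraries, with blue symbols for wild type and orange symbols for knockout, circles for replicate 1, squares for replicate 2 and a short line at each group mean. Every wild type symbol lies above both knockout symbols of its gene, and the gap is widest in Actrt2.

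The depth of the libraries, estimated from the value of a single read in single-exon genes, was 29500000 to 36900000 reads. Adad2 itself had log2 RPKM of 4.66 and 4.47 in wild type and 3.73 and 3.30 in the knockout (change -1.05, limma adjusted p = 0.00604; 0.143 without wild type replicate 1 and 0.0838 without wild type replicate 2), so transcript was still measured. Testis markers were present, and the marker lists of the cells that make these 8 transcripts were lower too. Of 7 round spermatid markers 5 were called lower, and all 7 changes were below 0. Their summed levels were 177 to 194 RPKM in wild type and 68.1 to 85.9 RPKM in the knockout. The 2 that missed the threshold were Spaca7 (log2 change -1.8, limma adjusted p = 0.0779) and Acr (-0.22, limma adjusted p = 0.221). Of 8 elongating spermatid markers 7 were called lower and all 8 changes were below 0, with sums of 924 to 975 and 68.7 to 117 RPKM. Tnp2, which missed the threshold, had the largest change of this list (-5.39, SE 0.84, limma adjusted p = 0.0761). No spermatocyte marker was called among 7 tested (2 at an unadjusted p under 0.05 in limma), with 6 changes above 0 and 1 below. The sums of the list were 642 to 744 and 766 to 775 RPKM. Hist1h1t, also on this list, was below the filter, at 1.2 and 0.924 RPKM in wild type and 0.534 and 0.448 RPKM in the knockout. No Sertoli cell marker was called among 7 tested (5 at an unadjusted p under 0.05), with sums of 309 to 333 and 400 to 402 RPKM. Limma called 0 of 6 spermatogonial (3 at an unadjusted p under 0.05), 0 of 6 Leydig cell (1) and 0 of 4 red blood cell markers (0), 1 of 5 peritubular muscle markers (Actg2, lower) and 1 of 4 macrophage markers (Aif1, lower). Red blood cell markers summed to 83.9 RPKM in wild type replicate 1 and to 31.6 to 40.7 RPKM in the other libraries. None of the spermatid markers was at 0 in any library, and their part in the results for the 8 genes was not tested. Without wild type replicate 1 limma called 0 of both spermatid lists, and without wild type replicate 2 it called 2 round and 7 elongating spermatid markers. With a filter at a mean log2 RPKM of 2 it called 3 round spermatid markers, and with the replicate number as a block 4 elongating spermatid markers.

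The Actl7 genes lie head to head on chromosome 4, and Actl7a fell further than its partner. Actl7b, an actin-like protein that spermatids need to complete their shaping, was the most abundant of the 8, at 178 and 172 RPKM in wild type replicates 1 and 2 and 90.9 and 87.1 RPKM in knockout replicates 1 and 2. Replicates differed by at most 1.04-fold, while the groups differed by 1.97-fold (log2 change -0.97, SE 0.11, limma adjusted p = 0.00111). Actl7a, which helps to hold the acrosome to the nucleus, was at 53.6 and 48.7 RPKM in wild type and 15.1 and 12.1 RPKM in the knockout. Its knockout values were both far under its wild type values, with a change of -1.92 on the log2 scale, or 3.78-fold (SE 0.13, 95% confidence interval -2.22 to -1.61, limma adjusted p = 0.000143). Actl7b (ENSMUSG00000070980) is on the minus strand at chr4:56752879-56754297 and Actl7a (ENSMUSG00000070979) on the plus strand at chr4:56756294-56757797, in mm9, with 1996 bases between them. The ratio of Actl7b to Actl7a in RPKM was 3.31 and 3.53 in wild type and 6.02 and 7.18 in the knockout. The confidence interval of Actl7b, -1.22 to -0.73, did not meet that of Actl7a. The difference between these genes was not tested.

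Actl9, a partner of Actl7a in anchoring the acrosome, stood at 45.6 and 49.5 RPKM in wild type and 25.7 and 23.8 RPKM in the knockout. Its change of -0.94 on the log2 scale, a fall of 1.92-fold (SE 0.11, limma adjusted p = 0.00128), was close to the change of Actl7b. In wild type its values overlapped those of Actl7a, whereas in the knockout Actl9 was 1.70-fold and 1.97-fold above Actl7a in replicates 1 and 2. It lies on the plus strand at chr17:33569842-33571213 in mm9 (ENSMUSG00000092519).

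The actin-related proteins of the perinuclear theca included both the largest fall and the lowest level. Actrt2 was at 39.7 and 35 RPKM in wild type and 4.24 and 2.12 RPKM in the knockout. Both knockout values were far below wild type, yet they also differed 2.0-fold from each other, the widest gap between replicates among the 8 genes. The change was -3.64 on the log2 scale (SE 0.37, 95% confidence interval -4.67 to -2.61, limma adjusted p = 0.0121). As a fold, this interval runs from 6.09 to 25.4. Of the 13414 genes tested, 50 fell at least as far by the size of their change, Actrt2 included. Actrt2 (ENSMUSG00000051276) lies on the minus strand at chr4:154040537-154041976 in mm9.

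Actrt1, its X-linked relative (ENSMUSG00000046615, plus strand, chrX:43682184-43683522 in mm9), was at 4.25 and 3.16 RPKM in wild type and 1.47 and 1.19 RPKM in the knockout. It was the least abundant of the 8 in every library and fell 2.76-fold (log2 change -1.47, SE 0.20, limma adjusted p = 0.00272). These low levels rested on an estimated 172, 156, 65 and 47 reads. Actrt2 in the knockout rested on an estimated 201 and 90 reads, so neither was near the level of a few reads. The ratio of Actrt2 to Actrt1 was 9.34 and 11.1 in wild type and 2.88 and 1.78 in the knockout. A wide gap between these relatives in wild type was therefore much narrower in the knockout.

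**Figure D2:**
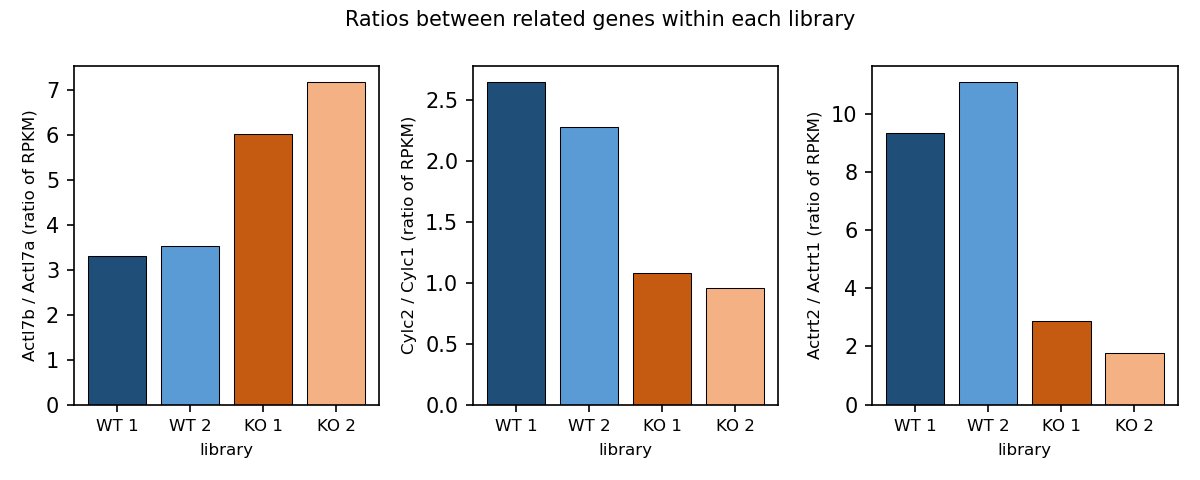
Ratio of RPKM between related genes within each library (vertical axes from 0), for wild type (WT, blue) and knockout (KO, orange) replicates 1 and 2. Actl7b over Actl7a is higher in both knockout libraries (6.02 and 7.18), while Cylc2 over Cylc1 and Actrt2 over Actrt1 are lower in both.

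The cylicins, basic proteins of the calyx behind the acrosome, both fell, Cylc2 further than Cylc1. Cylc2 was at 24.3 and 21.4 RPKM in wild type and 6.40 and 4.36 RPKM in the knockout, a change of -2.11 on the log2 scale, or 4.31-fold (SE 0.19, 95% confidence interval -2.58 to -1.64, limma adjusted p = 0.00161). Cylc1 was at 9.17 and 9.37 RPKM in wild type and 5.93 and 4.54 RPKM in the knockout. The wild type values of Cylc1 nearly coincided, and both knockout values were below them, by 1.79-fold on average (log2 change -0.84, SE 0.14, 95% confidence interval -1.16 to -0.51, limma adjusted p = 0.00787). Cylc2 exceeded Cylc1 by 2.65-fold and 2.28-fold in wild type, and in the knockout the ratio was 1.08 and 0.961. In the knockout the levels of these genes thus overlapped. Cylc2 (ENSMUSG00000039555) lies on the plus strand at chr4:51229550-51242800 and Cylc1 (ENSMUSG00000073001) on the plus strand at chrX:108305797-108319213, in mm9.

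Capza3, which caps the growing end of actin filaments together with a beta subunit, was at 32.7 and 29.4 RPKM in wild type and 9.57 and 6.25 RPKM in the knockout. It fell 4.0-fold (log2 change -2.0, SE 0.21, 95% confidence interval -2.52 to -1.49, limma adjusted p = 0.00318). Capza3 (ENSMUSG00000041791) is on the plus strand at chr6:139990046-139991310 in mm9, and 67 bases before it, on the minus strand, the table places the start of Plcz1, the sperm phospholipase C that starts egg activation. Plcz1 was at 4.11 and 3.96 log2 RPKM in wild type and 2.16 and 1.82 in the knockout. Its change, -2.05 (SE 0.14, limma adjusted p = 0.000124), was close to that of Capza3. In the Gencode M21 transcripts 4.72% of the 36-base stretches of Capza3 also occur, on either strand, in Plcz1, so some reads may be shared where strand was not used. Among 914 such head-to-head pairs of tested genes within 2000 bases of each other, 74 held a lower gene. In 12 of these 74 (16.2%) both were lower, among them Plcz1 with Capza3 and Actl7b with Actl7a. Whether this share differs from that of genes that are not neighbours was not tested.

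The order of levels changed between the groups. In wild type it ran Actl7b, Actl7a and Actl9 (overlapping), Actrt2, Capza3, Cylc2, Cylc1 and Actrt1. In the knockout it ran Actl7b, Actl9, Actl7a, Capza3, Cylc2 and Cylc1 (the last pair overlapping, and Capza3 overlapping Cylc2), Actrt2 and Actrt1. Actrt2 thus went from rank 4 to rank 7. Summed over the 8 genes, the level was 387 and 368 RPKM in wild type and 159 and 141 RPKM in the knockout. Actl7b supplied 45.9% and 46.7% of that sum in wild type and 57.1% and 61.5% in the knockout. Knockout replicate 2 was below knockout replicate 1 in 8 of 8 genes, by a median of 0.35 on the log2 scale. The same held for 86.0% of all genes called lower, with the same median of 0.35, and for 55.8% of all genes tested. The round and elongating spermatid marker sums were also lower in knockout replicate 2 (68.1 against 85.9 and 68.7 against 117 RPKM), and their part in this difference was not tested.

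**Figure D3:**
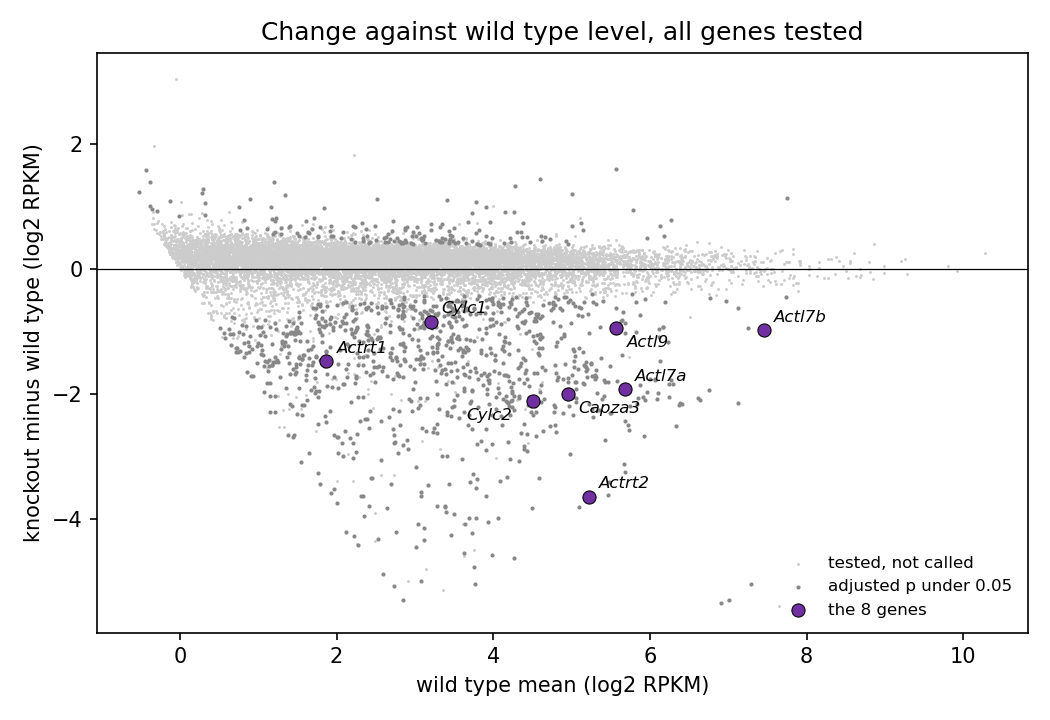
Change in log2 RPKM (knockout minus wild type, vertical axis) against wild type mean level (horizontal axis) for the 13414 genes tested, with genes past the threshold in dark grey and the 8 sperm head genes in purple. All 8 lie below 0, from -0.84 for Cylc1 to -3.64 for Actrt2.

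In gene structure, 6 of the 8 have a single exon block in Gencode M21, while Cylc1 has 6 and Cylc2 has 5. Among all tested protein-coding genes with a single exon block, 73 of 398 (18.3%) were lower, beside 711 of 11359 (6.26%) with several. Cylc1 and Actrt1 are on chromosome X, where 60 of 529 tested genes (11.3%) were lower. Actl7a, Actl7b, Actrt2 and Cylc2 are on chromosome 4, where 97 of 903 tested genes (10.7%) were lower. Of the 36-base stretches of their transcripts, 0 were shared with other genes for Actl7a, Actl9, Actrt1, Actrt2, Cylc1 and Cylc2. For Actl7b 90.7% were shared with Gm26657, a name that RefSeq gives as a synonym of Actl7b and that has no entry of its own in the table.

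Promoter windows from RefSeq (250 bases before the start of the gene and 50 after, build GRCm38.p6) were matched for 6 of the 8 genes, and 5 are shown, 4 that hold the variant described next and that of Actrt2, the gene with the largest fall, which lacks it. The cAMP response element, the site of CREM, a transcription factor of spermatids, is TGACGTCA. Neither it nor its part TGACGT was found in the 6 windows on either strand, beside 1.79% and 7.51% of all 32851 windows. The variant TGATGTCA, chosen after the windows had been read, was in 4 of the 6 windows on either strand, against 3.62% of all windows. Its first base lay 40 bases before the start in Actl7a, 36 in Actl7b (on the opposite strand, read as TGACATCA), 60 in Actl9 and 32 in Cylc1. No copy was found in the windows of Actrt1 and Actrt2, the latter with the largest fall, and a match is a description of letters, not a site. The windows, with the variant in capitals, are those of Actl7a (chr4:56743172-56743471, plus strand), Actl7b (chr4:56741376-56741675, minus strand), Actl9 (chr17:33432649-33432948, plus strand), Cylc1 (chrX:111110168-111110467, plus strand) and Actrt2 (chr4:154667818-154668117, minus strand), each 5′ to 3′ on its gene's strand.
Actl7a: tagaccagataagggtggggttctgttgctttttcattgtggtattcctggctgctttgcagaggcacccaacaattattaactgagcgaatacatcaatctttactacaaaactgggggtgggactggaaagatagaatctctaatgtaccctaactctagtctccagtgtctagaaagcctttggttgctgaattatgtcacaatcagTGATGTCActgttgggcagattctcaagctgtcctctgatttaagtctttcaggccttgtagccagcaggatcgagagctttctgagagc
Actl7b: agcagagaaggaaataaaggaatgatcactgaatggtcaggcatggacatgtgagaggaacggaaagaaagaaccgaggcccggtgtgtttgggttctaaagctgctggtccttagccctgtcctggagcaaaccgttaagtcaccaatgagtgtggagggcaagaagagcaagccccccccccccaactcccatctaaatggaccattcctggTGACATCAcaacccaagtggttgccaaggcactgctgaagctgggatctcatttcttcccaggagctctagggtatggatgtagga
Actl9: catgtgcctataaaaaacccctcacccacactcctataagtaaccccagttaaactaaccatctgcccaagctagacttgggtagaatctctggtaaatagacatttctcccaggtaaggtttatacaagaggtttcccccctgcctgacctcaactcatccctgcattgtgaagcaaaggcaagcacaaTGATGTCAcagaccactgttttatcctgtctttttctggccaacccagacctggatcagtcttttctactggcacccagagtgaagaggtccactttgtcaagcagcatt
Cylc1: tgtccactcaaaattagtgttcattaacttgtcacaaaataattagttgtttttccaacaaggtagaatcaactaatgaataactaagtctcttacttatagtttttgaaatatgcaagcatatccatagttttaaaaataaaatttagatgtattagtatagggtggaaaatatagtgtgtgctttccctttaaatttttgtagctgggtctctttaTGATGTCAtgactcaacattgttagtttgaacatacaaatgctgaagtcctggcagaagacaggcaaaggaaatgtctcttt
Actrt2: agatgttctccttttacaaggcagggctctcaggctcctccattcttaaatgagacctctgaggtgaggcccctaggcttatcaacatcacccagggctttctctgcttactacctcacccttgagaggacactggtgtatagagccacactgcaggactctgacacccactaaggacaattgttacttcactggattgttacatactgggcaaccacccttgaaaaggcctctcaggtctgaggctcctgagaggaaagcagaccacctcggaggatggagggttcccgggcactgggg

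Other genes of the perinuclear theca and acroplaxome included some that were called lower and some with changes near 0. Of 21 on the list, 20 were tested: 7 were called lower, no gene was called higher and 13 missed the threshold. Changes were below 0 in 16 and above 0 in 4, and the median log2 change was -0.10 beside 0.14 over all genes tested. Ccin, the calicin of the calyx, was at 4.13 and 4.23 log2 RPKM in wild type and 1.16 and 0.54 in the knockout, 10-fold lower (SE 0.21 on the log2 scale, limma adjusted p = 0.000361). Actl11, a further actin-like gene of the testis, fell 5.91-fold and Wbp2nl, a protein of the theca behind the acrosome, 3.58-fold. Fam209, a partner of Dpy19l2 in the nuclear envelope, fell 3.47-fold, Spata46, of the space under the acrosome, 3.36-fold, and Spaca1, an acrosomal membrane protein, 2.91-fold. Together with Plcz1 these make up the 7. Without wild type replicate 1 limma called 0 of them.

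Members of the same structure that were not called included Dpy19l2, the inner nuclear membrane protein that anchors the acrosome, at 5.25 and 5.36 log2 RPKM in wild type and 5.35 and 5.03 in the knockout (change -0.11, limma adjusted p = 0.568). Zpbp2, of the acrosomal matrix, had a change of -0.02 and Pfn4, a profilin, of -0.01. Pfn3, another profilin, was at 3.25 and 2.83 in wild type and 1.60 and 0.27 in the knockout, a change of -2.11 with a wide error (SE 0.51, limma adjusted p = 0.114).

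Actrt3, the third actin-related protein of this family, did not reach the filter and is named after its values were seen. The table lists it as Arpm1, at 1.38 and 1.54 log2 RPKM in wild type and -4.43 and -6.00 in the knockout. With the exon length of Gencode M21 these correspond to 154 and 210 reads in wild type and to 3 reads and none in the knockout, where the table puts 0.9 of a read in place of 0. The ratio of reads per depth was 113, with a 95% counting interval of 38.3 to 549 that covers counting error only. In the fit without a filter its limma adjusted p was 0.0104.

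**Figure D4:**
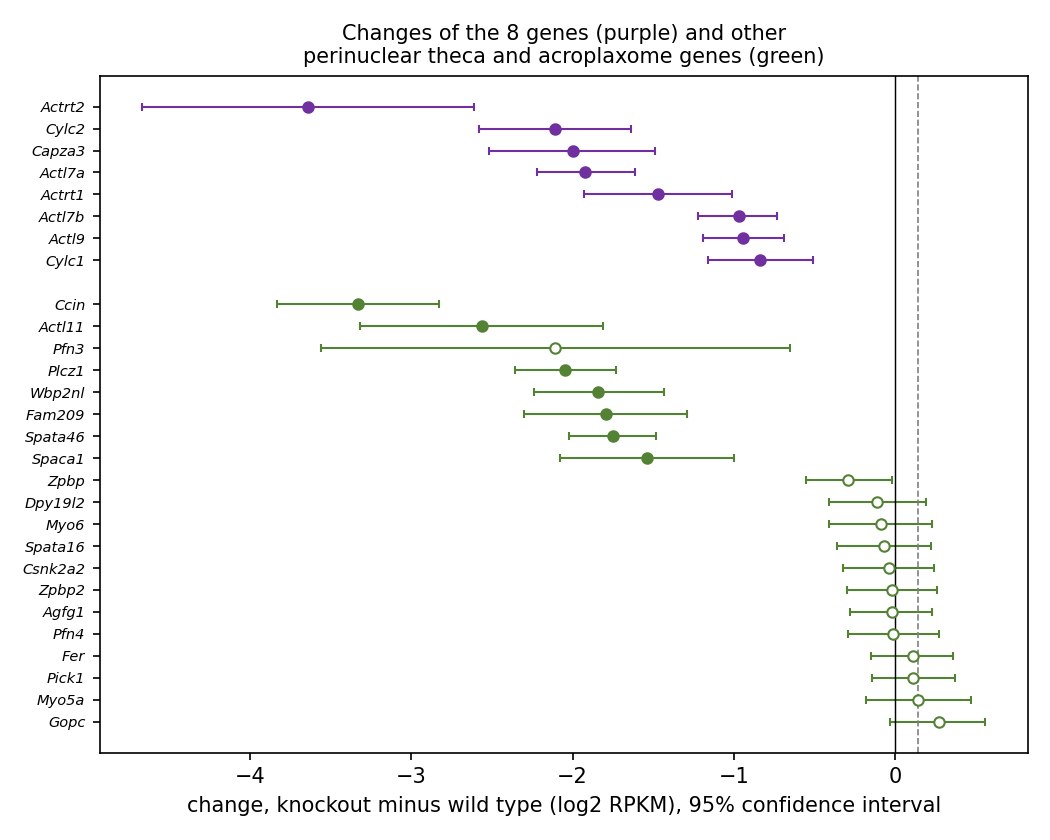
Change in log2 RPKM (knockout minus wild type, horizontal axis) with 95% confidence intervals for the 8 sperm head genes (purple) and 20 tested genes of the perinuclear theca and acroplaxome (green), with filled symbols for adjusted p under 0.05 and a dashed line at the median of all genes tested, 0.14. All purple and 7 green symbols are filled, and a group of green symbols from Zpbp downward lies near 0.

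The relatives of these proteins that all cells carry were not called. Of 12 actin-related and capping proteins, limma called 0 (1 at an unadjusted p under 0.05), with a median log2 change of 0.18 and a range of -0.21 to 0.27. Capza1 and Capza2, the general alpha subunits that correspond to Capza3, had changes of 0.25 (limma adjusted p = 0.241) and 0.23 (limma adjusted p = 0.199). Capzb, the beta subunit that pairs with all of them, was at 4.86 and 4.96 log2 RPKM in wild type and 4.89 and 4.94 in the knockout. The level of Capza3 in wild type (5.03 and 4.88) was thus near that of Capzb, and in the knockout (3.26 and 2.64) it was below it. The smallest p on this list belonged to Actr6, of chromatin remodelling, with a change of 0.27 (limma adjusted p = 0.18), while that of Actr3, of the complex that branches actin filaments, was 0.21 (limma adjusted p = 0.226).

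Of the 6 conventional actins 5 were tested and 1 was called lower. Actb, the cytoplasmic beta actin, was at 6.21 and 6.09 log2 RPKM in wild type and 6.20 and 6.10 in the knockout. Actg2, a smooth muscle actin, was the one that fell, 5.03-fold (limma adjusted p = 0.00854), and it was not called without wild type replicate 1 or without wild type replicate 2. Acta2, the other smooth muscle actin, had a change of 0.31 (limma adjusted p = 0.118).

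**Figure D5:**
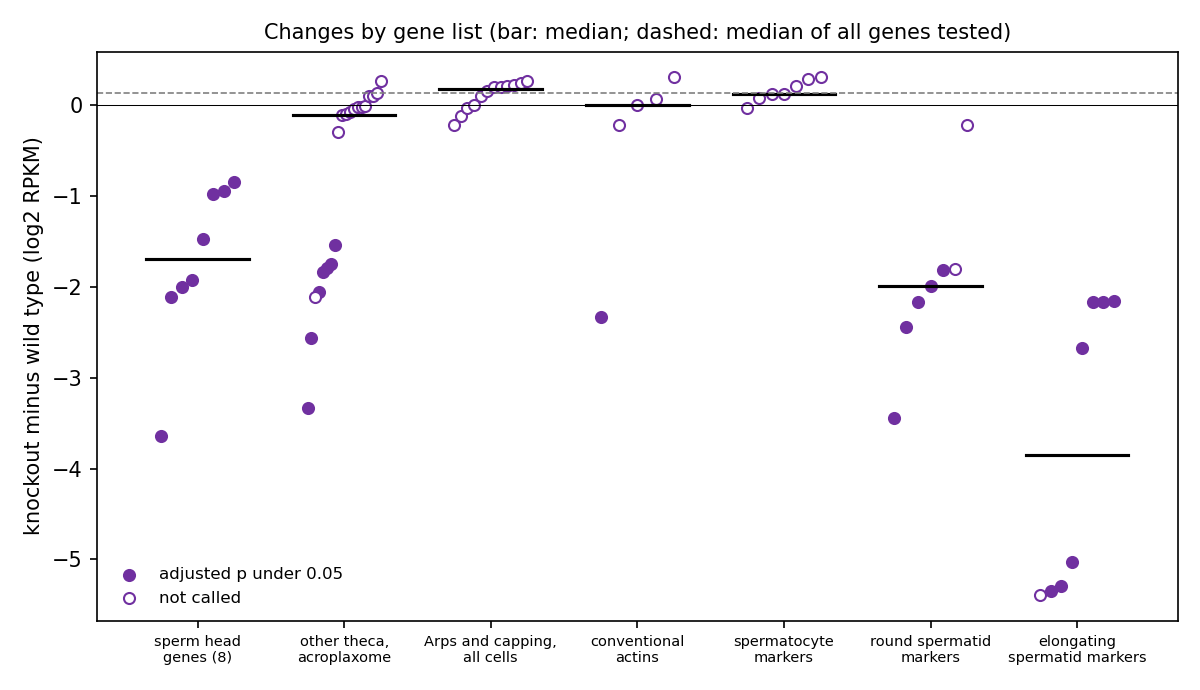
Change in log2 RPKM (knockout minus wild type, vertical axis) of each tested gene in 7 lists, with filled symbols for adjusted p under 0.05, bars for medians and a dashed line at the median of all genes tested. The 8 sperm head genes lie at -0.84 and below, as do the genes of the theca list that fell and most spermatid markers, while the 12 actin-related and capping proteins of all cells lie between -0.21 and 0.27.

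The genes with the pattern most like the mean of the 8 were found by the root mean square distance of log2 values, each centred on its own mean, over the 4 libraries. Genes with clone or predicted names were left out of this search, so nearer ones among them are not listed. The nearest of the rest were Gstt4 (distance 0.019), Gtsf1l (0.034), Arrdc5 (0.039), Cypt2-ps (0.042) and Cabyr (0.043), the last a calcium-binding protein of the sperm tail. Gstt4 was at 5.35 and 5.25 log2 RPKM in wild type and 3.81 and 3.39 in the knockout. Among the 8 themselves, the distance to their mean was smallest for Actl7a (0.097) and largest for Actrt2 (0.973). With 4 libraries in 2 groups this likeness is mostly the size of the difference between the groups.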

How the data were processed

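Whole-testis RNA (TruSeq libraries, per the labels' protocols) was processed with bcl2fastq 2.17.1.14, Bowtie2 and mm9, per the submitters' processing notes; the sources used here do not give the counter, annotation, strand use or filters. The authors deposited log2 RPKM per gene. The control and null columns carry the group and number of the labels. Of 26127 entries, 59 (0.226%) name no gene and were left out. The depth, an estimate, was the one at which low values (at most 10 reads) of 802 single-exon genes came out closest to whole reads. There were 148 to 165 such values per library. At the chosen depth 95.7% to 96.7% of them were whole to within 0.05 reads, a share that was fitted and is no separate check. Estimated reads of multi-exon genes used Gencode M21 exon lengths. Genes with a mean of at least 0 on the log2 scale were tested with limma 3.58.1 (R 4.3.3; trend and robust estimation, statmod 1.5.0), unpaired, two-sided, without a pseudocount, with Benjamini-Hochberg adjustment over all genes. Folds come from the difference of group means on the log2 scale. The code was tested on simulated data in which the spreads were shuffled over genes, so any relation of spread to level was left out. The members and lists were chosen with earlier results of these data known. The naming rule took the 8, Adad2, the genes called or with the smallest p in each of the 3 lists of related genes, and the 5 nearest in pattern. For the pattern, the rule left out clone and predicted names. Dpy19l2, Zpbp, Zpbp2, Pfn3, Pfn4, Actrt3, Capzb, Actb, Aif1, Ikbkap and 4930515L19Rik fall outside it and were chosen after their values were seen. The same holds for Spaca7, Acr, Tnp2 and Hist1h1t. An exact permutation of 2 libraries against 2 reaches a two-sided p of 0.333 at best, so the calls depend on limma's pooling of the spread over genes. Alternatives were other filters, log2(RPKM + 1), other scalings, limma without trend, the replicate number as a block, and leaving out each library.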

Additional observations from a re-analysis of the deposited data

How the results depend on the processing

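All 55 values of the 8 genes under the 7 settings that kept every library stayed below 0 and past the threshold; with the stricter filter (mean log2 RPKM of at least 2) 7 of the 8 were tested, since Actrt1 was below it. Leaving out each library in turn gave 0 to 8 of the 8 genes, 0 to 1308 lower genes and 0 to 494 higher genes in all; it leaves a lone library that is assumed to vary like the other group. Beside 959 lower and 163 higher genes, the stricter filter gave 637 lower, no filter gave 97 higher and quantile normalization 245 higher; the cause was not tested. With the replicate number as a block, limma called 1477 lower and 1837 higher genes and 8 of the 8; same-numbered libraries correlated at r = 0.33 in their deviations over 13414 genes, but the labels give no pairing and the fit has few degrees of freedom. Of the elongating spermatid markers the block called 4 in place of 7, and of the round spermatid markers the stricter filter called 3 in place of 5; these counts were added after seeing the data. Repeated symbols could not be averaged, since each of the 8 has 1 entry. Estimated depth limits Actrt1 most, at 47 reads in its lowest library.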

Other observations

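On the X chromosome, 95 bases before Actrt1 and on the opposite strand, lies the clone-named gene 4930515L19Rik, which was below the filter. It had an estimated 17 and 16 reads in wild type and 1 read in each knockout library, a ratio per depth of 15.3 with a 95% counting interval of 3.92 to 132 that covers counting error only. In the fit without a filter its limma adjusted p was 0.00859. It was singled out after its values were seen. The gene on the other side of the Actl7 pair, Ikbkap, 4754 bases from Actl7a, was at 2.09 and 1.97 log2 RPKM in wild type and 2.29 and 2.27 in the knockout (limma adjusted p = 0.218).

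The letters TGATGTCA, found in the windows of Actl7a, Actl7b, Actl9 and Cylc1, were counted over all genes whose symbol matched a RefSeq window. They were in a window of 13.6% of 594 genes called lower (these 4 included) and of 3.30% of 8898 genes tested. For TGACGTCA the shares were 5.22% and 3.76%, and for TGACGT 11.8% and 13.2%. Of 1269 copies of TGATGTCA in all windows, on either strand, 292 (23.0%) began 30 to 60 bases before the start, where the copies of Actl7a, Actl7b, Actl9 and Cylc1 also began. The letters were chosen after the windows of the 8 genes had been read. The range of 30 to 60 bases encloses the copies of these 4 genes, so that they lie in it was fixed. These shares are a description with no test.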
